A study of Mus musculus with 24 samples.

Results

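The 10 genes described here are markers and regulators of the epithelial-mesenchymal transition: Cdh1, Epcam, Cdh2, Vim, Fn1, Snai1, Snai2, Twist1, Zeb1 and Zeb2. They were chosen by name, as the array probes for genes and not for controls whose gene name is 1 of the 10. They are 10 of 30119 genes named on the arrays, and 10 of 10 passed the filter on low signal that left 20941 genes for testing. Mammary tumors from mice were compared by diet and by whether they arose early or late after the carcinogen, a design that asks whether fat in the diet around puberty or in adulthood alters the tumors. Total RNA of 24 tumors was hybridized, 1 tumor per array, beside Universal Mouse Reference RNA, a pool from 11 mouse cell lines.

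In the epithelial-mesenchymal transition, epithelial cells give up the contacts that hold them in a sheet and take on the shape and movement of mesenchymal cells. E-cadherin, the product of Cdh1, holds epithelial neighbors together, and the zinc finger repressors Snai1, Snai2, Zeb1 and Zeb2 and the helix-loop-helix factor Twist1 can silence it. Such factors are also used by normal cells of the breast, since fibroblasts express Vim, Fn1 and Zeb1 and basal epithelial cells express Snai2.

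All tumors arose in BALB/c mice, an obesity-resistant strain, after the carcinogen 7,12-dimethylbenz[a]anthracene (DMBA). LFD mice were kept on a low-fat diet and HFD mice on a diet high in saturated animal fat, both begun at weaning age. LFD-HFD mice changed from the low-fat to the high-fat diet as young adults, and HFD-LFD mice made the opposite change, so that they had the high-fat diet only around puberty. The labels give 3 early HFD, 3 early HFD-LFD, 5 late LFD, 6 late HFD, 4 late LFD-HFD and 3 late HFD-LFD tumors. Early tumors were thus 6 and late tumors 18, and no LFD or LFD-HFD tumor was early. Histology is not part of the labels, and whole tumor pieces were measured, so fewer cells of a type and less RNA per cell cannot be told apart. Nothing in the labels says whether any tumors came from the same mouse, and p-values measure the spread between these samples.

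The arrays lay on 7 slides scanned in 3 sessions. The early tumors fell evenly into sessions 1 and 2, 3 in each, beside 8 and 3 late ones, and all 7 tumors of session 3 were late. In the tumor channel, 65.7% to 89.1% of probes exceeded the background clearly. On the 7 arrays of session 3, a block of rows holding 18.3% to 22.6% of the spots had lost the tumor dye, and spots there were set missing, as were spots that the scanner software marked as outliers. Of the 10 genes, Cdh2 and Snai2 lost 4 arrays to these rows and Epcam and Zeb1 lost 3. Markers of mammary epithelium were present: the luminal keratins Krt8 and Krt19 and the basal keratin Krt14 were well above background on all 24 arrays.

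Values are log2 ratios of tumor over reference, so that 0 means as much signal as in the cell line pool, and levels of different genes cannot be ranked against each other. The labels place the tumor in cyanine 5 and the reference in cyanine 3, whereas the study's methods place the reference in cyanine 5. The direction used here is that of the labels: over 16291 probes, the median SD between arrays was 0.62 on the log2 scale in cyanine 5 and 0.27 in cyanine 3. Differences were fitted in limma, p-values were adjusted by Benjamini-Hochberg over all genes, and a gene was called at an adjusted p under 0.05.

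In early against late tumors 0 of the 10 genes were called in limma, against 16.0% of all genes tested, and 0 of the 10 had an unadjusted p under 0.05. The epithelial genes did not move one way: Cdh1 was 0.15 ± 0.21 (SE) lower and Epcam 0.45 ± 0.54 higher in early tumors on the log2 scale. The mesenchymal genes were also divided, with Cdh2 at -1.04 ± 0.54, Vim at -0.09 ± 0.39 and Fn1 at 0.80 ± 0.61. The median difference of the 10 genes was -0.06, beside -0.05 over all genes. A p above the threshold does not show that the groups are alike, and the 95% intervals of Cdh2 (-2.16 to 0.09) and Fn1 (-0.47 to 2.07) include changes of over 1 log2 unit.

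**Figure D1:**
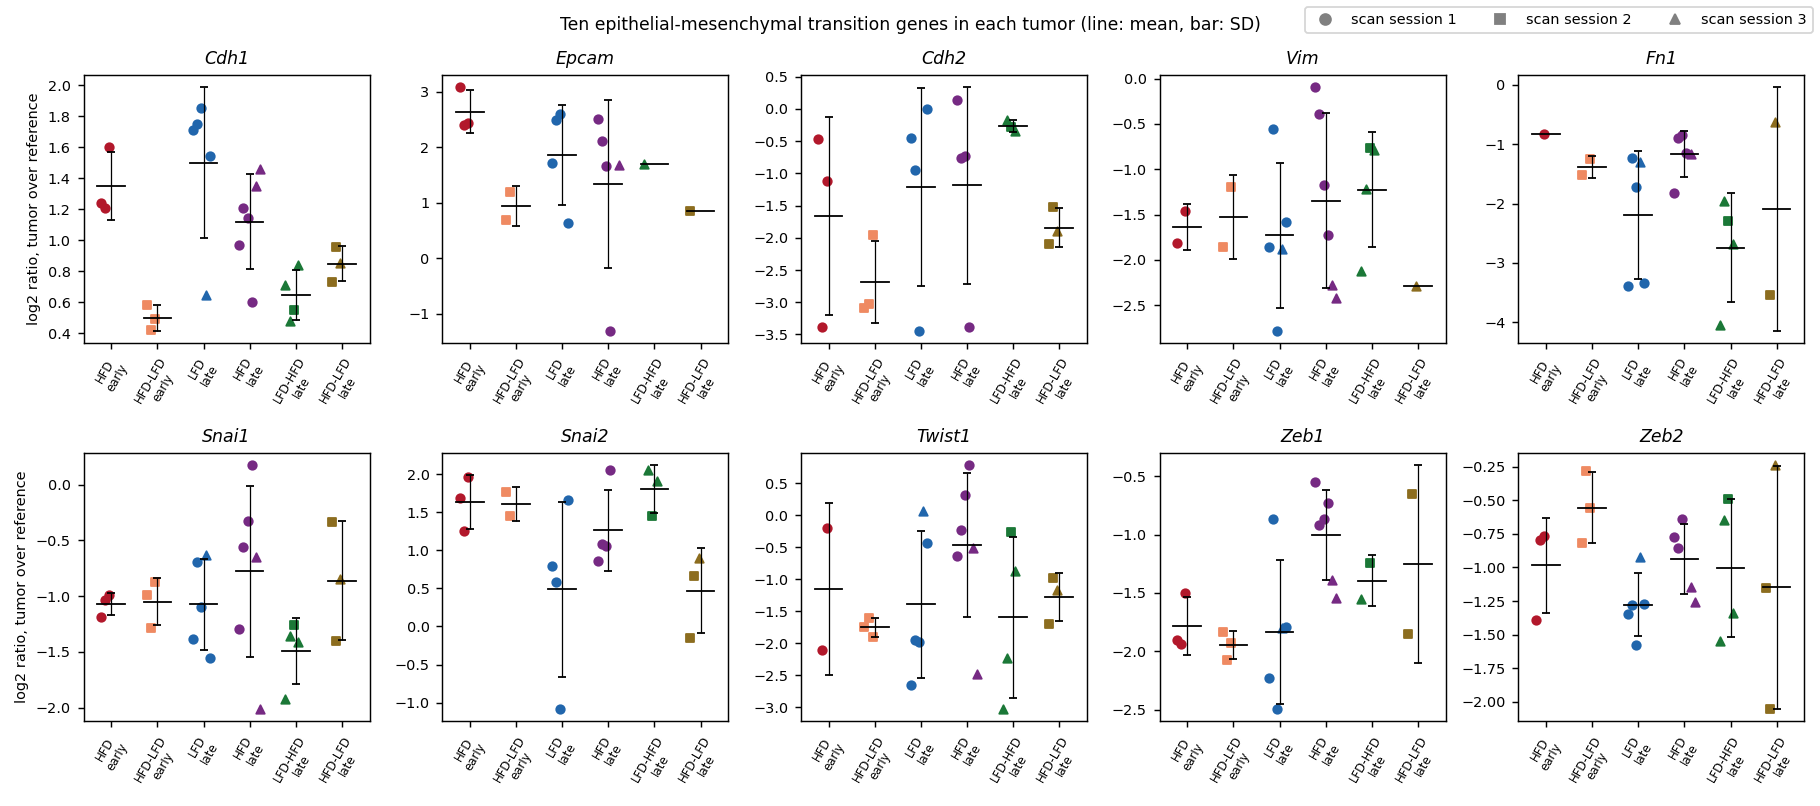
Log2 ratio of tumor over reference (vertical axis) for each of the 10 genes in every tumor with a value, by diet and onset label (horizontal axis). Point shape gives the scan session, lines are group means and bars SD. Cdh1 in the 5 LFD tumors has 4 values from 1.54 to 1.85 and 1 at 0.65, and Cdh2 and Twist1 spread over more than 3 log2 units.

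Cdh1, the adhesion protein whose loss defines the transition, was measured by 10 spots per array, whose undimmed values had a median SD of 0.0482 within an array. The probe lies at chr8:109193812-109193871 of mm9, the build of all probe positions here. In LFD tumors it lay at 1.71, 1.75, 1.85, 0.65 and 1.54. In LFD-HFD tumors it lay at 0.71, 0.48, 0.55 and 0.84. In late HFD-LFD tumors it lay at 0.73, 0.96 and 0.85. LFD tumors were the highest of these 3 groups save for LFD tumor 4, which lay within the LFD-HFD range. Early HFD-LFD tumors lay at 0.58, 0.42 and 0.49 and held the lowest value of all, early HFD tumors lay at 1.24, 1.21 and 1.60, and the 6 late HFD tumors ran from 0.60 through a median of 1.17 to 1.46. Ordered by mean, the groups ran from early HFD-LFD (0.50 ± 0.08, SD, n = 3) through LFD-HFD (0.64 ± 0.16, n = 4), late HFD-LFD (0.85 ± 0.11, n = 3), late HFD (1.12 ± 0.31, n = 6) and early HFD (1.35 ± 0.22, n = 3) to LFD (1.50 ± 0.49, n = 5), and each group overlapped its neighbor in this order.

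Cdh1 gave the 1 call among the 10 genes in any comparison. In late LFD-HFD against LFD tumors it was 0.86 ± 0.20 (SE) lower on the log2 scale, 1.81-fold, with a 95% interval of -1.27 to -0.44 and a limma adjusted p of 0.0428. In this comparison 1.22% of all genes were called. All 4 LFD-HFD values lay below the LFD median of 1.71.

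The LFD tumors were spread unevenly over slides. The 4 high LFD tumors shared slide 1 in session 1, while the LFD-HFD tumors lay in sessions 2 and 3. LFD tumor 4, on slide 6 in session 3, had a Cdh1 of 0.65, and the LFD-HFD tumor on the same slide had 0.71. The other tumors on slide 6, late HFD tumors 5 and 6, had 1.35 and 1.46, above the 4 late HFD tumors of slide 3 (0.60 to 1.21). Within session 3, with 1 LFD and 3 LFD-HFD tumors, the difference was 0.03 (limma adjusted p = 0.981), and with slide as a fixed block it was 0.06 (adjusted p = 0.999). Both values rest on the 1 LFD tumor outside slide 1. Apart from slide 6, diet and slide cannot be told apart in this comparison. LFD tumor 4 also had the lowest level of 8 luminal epithelial markers among LFD tumors, -0.90 against -0.06 to 1.60 as a mean of centered log2 ratios, and in LFD-HFD tumors that level was 0.53 to 1.46. The call held under 11 of 21 alternative settings, and with the dimmed spots kept as measured the difference was -0.74 (adjusted p = 0.198). The part of slide, session or luminal content in the Cdh1 difference was not tested. Without LFD tumor 4 the difference was -1.07 (adjusted p = 0.00365), and leaving out single arrays ended the call for 18 of 24, with adjusted p-values up to 0.124.

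**Figure D2:**
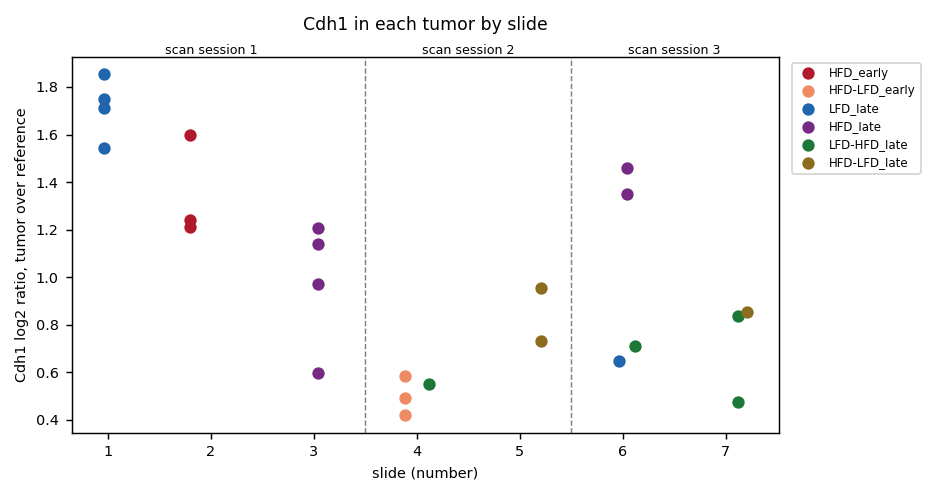
Cdh1 log2 ratio of tumor over reference (vertical axis) in each of the 24 tumors by slide (horizontal axis), colored by diet and onset label, with dashed lines between scan sessions. The 4 high LFD tumors are on slide 1, and LFD tumor 4 on slide 6 lies at 0.65 beside the LFD-HFD tumor at 0.71.

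Against the same LFD arrays, Cdh1 was 0.66 lower in late HFD-LFD tumors (limma adjusted p = 0.116) and 0.38 lower in late HFD tumors (adjusted p = 0.575), and neither was called. These 3 comparisons share their LFD tumors and are not independent. No slide held both LFD and late HFD-LFD tumors, and only slide 6 held both LFD and late HFD tumors. Apart from slide 6, diet and slide cannot be told apart here either. Within HFD-LFD mice, the early values of 0.42 to 0.58 lay below the late ones of 0.73 to 0.96 without overlap, yet the difference of -0.35 ± 0.24 (SE) was not called (limma adjusted p = 0.539). All 3 early HFD-LFD tumors were on slide 4 and the late ones on slides 5 and 7. Within HFD mice the estimate was 0.23 ± 0.21, and the change within HFD differed from that within HFD-LFD by 0.58 (95% interval -0.10 to 1.25, adjusted p = 0.669).

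Epcam, an adhesion molecule of most epithelia that is widely used to recognize carcinoma cells, was measured in 16 tumors by a probe at chr17:88048972-88049800. It ran from -1.31 to 3.09, with an SD of 1.08 that exceeded that of 95.4% of all genes. Early HFD tumors held 3.09, 2.40 and 2.44 and early HFD-LFD tumors 0.69 and 1.20. Late HFD tumors held 2.52, 2.12, 1.66, -1.31 and 1.68. Late HFD tumor 4 was the only tumor of the 16 in which Epcam was below the reference.

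That tumor stood apart in several of the 10 genes. Its Cdh1 of 0.60 was the lowest of the 6 late HFD tumors, its Cdh2 of -3.39 the lowest of the 4 with a value, and its Snai1 of 0.18 and Twist1 of 0.78 were the highest of all tumors. Its level of luminal markers was -3.84 and that of 12 squamous markers 4.63, the lowest and highest of the 24 tumors. Its fibroblast marker level of 1.63 was also the highest. The part of these cell types in its values was not tested.

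The RefSeq promoter windows of Epcam and Snai1 are shown because each holds the E-box CAGGTG, the DNA letters that the Snai and Zeb repressors bind in the Cdh1 promoter. Windows of 300 bases, from 250 before to 50 after the gene start in GRCm38.p6, were found for 5 of the 10 genes (Epcam, Snai1, Twist1, Vim and Zeb2), and 2 of the 5 held CAGGTG on either strand, where it reads CACCTG on the opposite one. Of 32851 such windows in the genome, 20.2% held it. A match is a description of the sequence and not of binding. The 250 bases before each start are printed on the plus strand, 5′ to 3′, with the E-box in capitals, for Epcam at chr17:87635729-87635978 and for Snai1 at chr2:167537945-167538194.
Epcam: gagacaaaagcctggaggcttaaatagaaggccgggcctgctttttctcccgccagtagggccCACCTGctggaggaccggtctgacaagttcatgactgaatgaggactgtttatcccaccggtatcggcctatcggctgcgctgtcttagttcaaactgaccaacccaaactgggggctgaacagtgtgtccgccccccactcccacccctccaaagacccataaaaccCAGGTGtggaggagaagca
Snai1: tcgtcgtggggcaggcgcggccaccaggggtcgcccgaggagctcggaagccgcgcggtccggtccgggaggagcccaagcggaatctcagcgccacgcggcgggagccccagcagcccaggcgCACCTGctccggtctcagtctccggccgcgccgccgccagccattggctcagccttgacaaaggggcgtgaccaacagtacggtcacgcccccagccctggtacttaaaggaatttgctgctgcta

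Cdh2, or N-cadherin, replaces E-cadherin in many cells that pass through the transition, and it was the most variable of the 10 genes, with an SD of 1.25 over 20 tumors that exceeded that of 97.0% of all genes. Its probe lies at chr18:16747559-16747618. Early HFD tumors lay at -0.47, -3.39 and -1.12, and early HFD-LFD tumors at -3.08, -3.03 and -1.95. LFD tumors lay at -0.46, -0.95, -3.44 and 0.00, late HFD tumors at 0.14, -0.76, -0.72 and -3.39, and late HFD-LFD tumors at -2.10, -1.52 and -1.90. LFD-HFD tumors lay within a narrow range, at -0.17, -0.29 and -0.34. Values below -3 occurred in 5 tumors of 4 groups. LFD, early HFD and late HFD tumors spanned the widest ranges, and LFD-HFD tumors lay wholly above both HFD-LFD groups and early HFD tumors. Each of these groups had 3 values, and the share of all genes without overlap was not counted.

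In early against late tumors Cdh2 was 1.04 lower with 6 and 14 values (limma adjusted p = 0.188). In the 4 tumors without a value, a second Cdh2 probe gave 0.30 (LFD tumor 4), -0.39 (LFD-HFD tumor 1), 0.50 and -1.36 (late HFD tumors 5 and 6). That probe, outside the rows that lost dye and measured on all 24 arrays, gave -1.43 ± 0.50 (SE), with a limma adjusted p of 0.0524 over all probes. Late HFD-LFD and LFD-HFD tumors did not overlap in Cdh2, a difference of -1.58 (95% interval -3.47 to 0.32, adjusted p = 0.756). Snai2 did not overlap there either, with 3 values on each side for both genes. How many of all genes did not overlap was not counted. Between these crossover diets 0 of the 10 were called, against 0% of all genes. The 1 gene of the 10 with an unadjusted p under 0.05 there was Snai2.

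Vim, the intermediate filament of mesenchymal cells, had values in 20 tumors (probe at chr2:13504232-13504291), from -2.78 to -0.09, with medians of -1.64 in 4 early and -1.65 in 16 late tumors. Its highest values were in late HFD tumors 1 and 2 (-0.09 and -0.39) and its lowest in LFD tumor 3. Late HFD tumors alone spanned -2.42 to -0.09. The early minus late difference of -0.09 had a 95% interval of -0.91 to 0.73. In 4 tumors the Vim spot carried the scanner's outlier mark and was left out.

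Fn1, the matrix protein fibronectin, had values in 19 tumors (probe at chr1:71632116-71632175), and 3 of the 5 missing ones were early. LFD tumors lay at -3.38, -1.24, -1.72, -1.30 and -3.33. Late HFD tumors lay at -1.82, -0.90, -0.84, -1.15 and -1.16, and the 1 early HFD tumor with a value at -0.83. LFD-HFD tumors, at -4.05, -1.95, -2.29 and -2.68, had the lowest mean of the 6 groups (-2.74 ± 0.92, SD, n = 4).

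Between the continuous diets, with the early and late HFD tumors as 1 group, Fn1 was 1.08 ± 0.42 (SE) higher in 6 HFD than in 5 LFD tumors, with a 95% interval of 0.15 to 2.01 and a limma adjusted p of 0.963. Of the 10 genes, only Fn1 had an unadjusted p under 0.05 there, and Snai2 (0.93 ± 0.44), Zeb1 (0.57 ± 0.29) and Zeb2 (0.33 ± 0.16) came next. In HFD against LFD, 0 of the 10 genes were called, against 0% of all genes, and 967 of 20934 genes had an unadjusted p under 0.05. The median difference of the 10 genes was 0.32, beside -0.01 over all genes, and 7 of the 10 were higher in HFD tumors. Only slide 6 held tumors of both diets, and Snai2 had no value there. Apart from slide 6, diet and slide cannot be told apart. The median level of 13 fibroblast markers was 0.80 in late HFD tumors (-0.87 to 1.63) and -0.13 in early HFD tumors (-0.56 to 0.14). In LFD tumors it was -0.38 (-0.76 to 0.55). The part of these markers in the diet differences was not tested.

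Snai1, the repressor Snail (probe at chr2:167368073-167368132), was measured in all 24 tumors and had nearly the same mean in early (-1.06 ± 0.15, SD, n = 6) and late tumors (-1.03 ± 0.58, n = 18). Early tumors stayed between -1.29 and -0.87, while late tumors ran from -2.01 to 0.18, both ends in HFD mice. LFD-HFD tumors lay at -1.92, -1.36, -1.26 and -1.42, the lowest group by mean (-1.49 ± 0.30, n = 4) and below the 3 early HFD tumors without overlap. That pair was picked from the ordered group means, and the share of all genes without overlap there was not counted. The early minus late difference of -0.03 changed sign under several settings.

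Snai2, or Slug, a factor of basal mammary cells as well as of the transition, had values in 19 tumors (probe at chr16:14709361-14709420). Early HFD tumors lay at 1.68, 1.25 and 1.96 and early HFD-LFD tumors at 1.77 and 1.45. LFD tumors lay at 0.80, 0.59, -1.08 and 1.66, and late HFD tumors at 0.85, 1.08, 1.06 and 2.05. LFD-HFD tumors lay at 2.05, 1.45 and 1.91, and late HFD-LFD tumors at -0.15, 0.67 and 0.90. The 3 late HFD-LFD values were below the 3 LFD-HFD and the 2 early HFD-LFD values without overlap. The share of all genes without overlap was not counted.

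Snai2 was 1.31 ± 0.48 (SE) higher in LFD-HFD than in LFD tumors (95% interval 0.29 to 2.33, limma adjusted p = 0.166). Its LFD values all came from slide 1 and its LFD-HFD values from slides 4 and 7. Diet and slide thus cannot be told apart in this difference. Snai2 was 1.33 ± 0.51 lower in late HFD-LFD than in LFD-HFD tumors (95% interval -2.42 to -0.24, adjusted p = 0.681). Within HFD-LFD mice it was 1.14 ± 0.57 higher in early tumors (95% interval -0.08 to 2.35, adjusted p = 0.377). In that last comparison 2 of 8 genes with at least 2 values on each side did not overlap, Cdh1 and Snai2. Both genes had few values on each side, and the share of all genes without overlap was not counted there. In limma 0 of the 10 were called, against 0.723% of all genes, with 0 at an unadjusted p under 0.05.

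Twist1, a factor of migrating mesoderm and of fibroblasts, ranged from -3.03 to 0.78 over 23 tumors (probe at chr12:34644411-34644470), with an SD of 1.03 above that of 94.8% of all genes. LFD tumors lay at -2.66, -1.95, -1.98, 0.06 and -0.44, and in 1 of these 5 the spot was not well above background. Late HFD tumors had the highest mean (-0.46 ± 1.12, SD, n = 6), and they too reached from -2.48 to 0.78. Early HFD-LFD tumors were close together, at -1.74, -1.61 and -1.90. No comparison gave Twist1 an unadjusted p under 0.05.

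Zeb1, a repressor of epithelial genes that fibroblasts also express, was measured in 21 tumors by a probe at chr18:5774613-5774672. The 6 early tumors lay between -2.07 and -1.50 with a median of -1.92, and the 15 late ones ran from -2.49 through -1.39 to -0.55. In LFD tumors it lay at -2.23, -0.87, -2.49, -1.80 and -1.79, and in the 6 late HFD tumors it ran from -1.54 through -0.90 to -0.55. Late HFD tumors were thus the highest group by mean, and they overlapped LFD tumors through LFD tumor 2 and early tumors through early HFD tumor 3.

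In late HFD against LFD tumors, Zeb1 was 0.84 ± 0.27 (SE) higher, with a 95% interval of 0.28 to 1.39 and a limma adjusted p of 0.376. Cdh1 and Zeb1 were the 2 of the 10 genes at an unadjusted p under 0.05 there, and 0 of the 10 were called, against 0% of all genes. In this comparison 8 of the 10 were higher in HFD tumors (median 0.36, beside 0.00 over all genes). Late HFD and LFD tumors shared only slide 6, and apart from that slide, diet and slide cannot be told apart. Within HFD mice Zeb1 was 0.78 ± 0.31 lower in early tumors (95% interval -1.43 to -0.13, adjusted p = 0.105). It was the 1 gene of the 10 at an unadjusted p under 0.05 within HFD, where 0 of the 10 were called, against 11.7% of all genes. Over all early and late tumors, Zeb1 was 0.50 ± 0.24 lower (adjusted p = 0.158). Slide 2 held only the 3 early HFD tumors, and slides 3 and 6 the late ones, so slide and onset cannot be told apart within HFD.

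Zeb2, the partner repressor, had the smallest spread of the 10 genes, with an SD of 0.45 over 23 tumors (probe at chr2:44842774-44842833), beside a median of 0.38 over all genes. Early tumors ran from -1.39 through -0.78 to -0.29 and late tumors from -2.05 through -1.16 to -0.24. Its early minus late difference was 0.32 ± 0.20 (SE, limma adjusted p = 0.273), and a second, dimmer probe gave 0.42 ± 0.24. For onset within HFD, and in late LFD-HFD and late HFD-LFD against LFD tumors, these probes gave Zeb2 differences of opposite sign. Their signs were the same in the remaining comparisons. The last of the Zeb2 probes failed the filter on low signal.

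**Figure D3:**
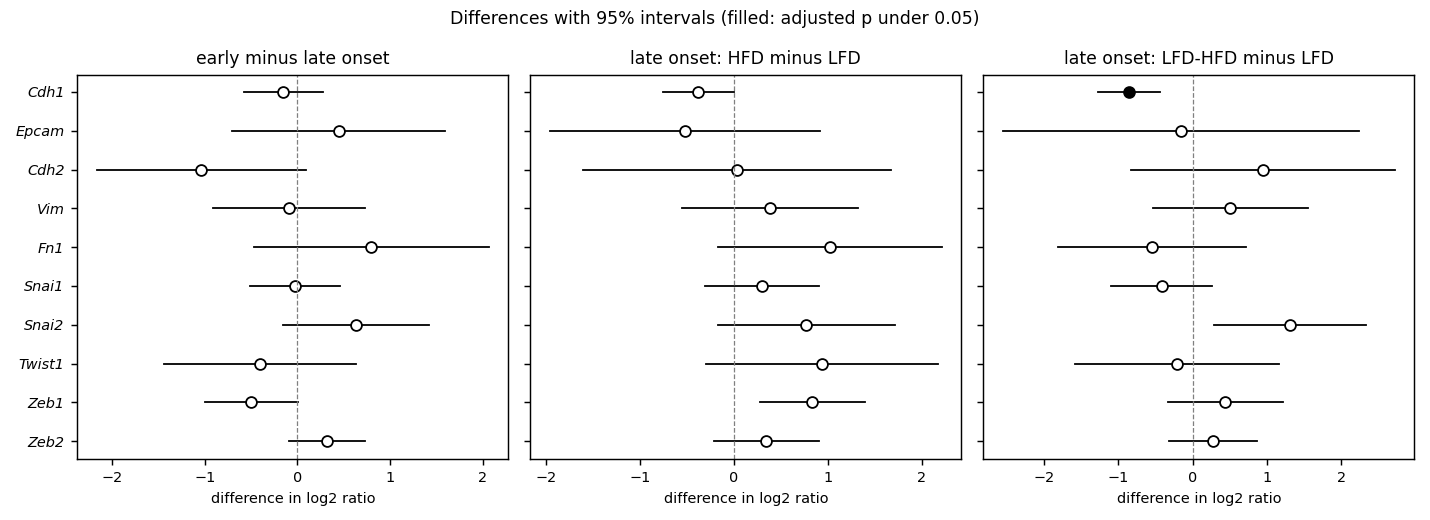
Difference in log2 ratio (horizontal axis) for each of the 10 genes (vertical axis) with its 95% interval, for early minus late onset and, among late tumors, HFD minus LFD and LFD-HFD minus LFD. The 1 filled point, Cdh1 in LFD-HFD minus LFD at -0.86, has an adjusted p under 0.05.

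In the other comparisons the 10 genes gave few low p-values. In LFD-HFD against LFD tumors, Cdh1 and Snai2 were the 2 genes at an unadjusted p under 0.05, and the median difference of the 10 was 0.06, beside 0.04 over all genes. In late HFD-LFD against LFD tumors 0 of the 10 were called, against 2.09% of all genes, and Cdh1 alone had an unadjusted p under 0.05. For the difference between the onset changes within HFD and within HFD-LFD, limma called 0 of the 10, against 0.00964% of all genes, and 0 had an unadjusted p under 0.05.

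The 10 genes were next compared with each other across tumors, in 45 pairs. With 2-sided permutation tests, 4 pairs had an adjusted p under 0.05 for Pearson's r, all positive, and the median r was 0.18. Fn1 and Snai1 gave r = 0.80 and Spearman's rho = 0.85 over 19 tumors (permutation adjusted p = 0.0009 and 0.00045). Without the 2 tumors farthest from the Fn1 median r was 0.73, within session 1 it was 0.73 (9 tumors) and within session 3 it was 0.92 (6 tumors). Tumors with little Fn1 thus had little Snai1 in both sessions, although neither within-session value passed the adjustment.

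The other pairs were less even. Vim and Zeb1 gave r = 0.70 and rho = 0.61 over 17 tumors (permutation adjusted p = 0.0313 and 0.126), 0.56 without the 2 farthest tumors and 0.82 within session 1. Fn1 and Zeb2 gave r = 0.68 and rho = 0.59 over 18 tumors (permutation adjusted p = 0.0313 and 0.126), 0.50 without the 2 farthest, 0.58 within session 1 and 0.79 within session 3. Snai1 and Twist1 gave r = 0.59 and rho = 0.53 over 23 tumors (permutation adjusted p = 0.0327 and 0.126), and 0.42 without the 2 farthest. Within sessions 1, 2 and 3 that last pair gave 0.59, -0.54 and 0.88, so it did not hold in session 2 (6 tumors). Late tumors held 1 pair past the adjustment, Fn1 and Snai1 at r = 0.83.

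The repressors showed no inverse relation with Cdh1 that passed the adjustment. Over the tumors with both values, Cdh1 gave r = -0.47 with Zeb2, -0.42 with Snai2, -0.12 with Snai1, -0.11 with Zeb1 and -0.11 with Twist1 (permutation adjusted p from 0.141 to 0.747), and rho was -0.51, -0.42, -0.08, -0.05 and -0.09 in the same order (permutation adjusted p from 0.126 to 0.908). Between the epithelial genes, Cdh1 and Epcam gave r = 0.54 and rho = 0.57 over 16 tumors (permutation adjusted p = 0.141 and 0.133). Between the cadherins, Cdh1 and Cdh2 gave r = 0.17 and rho = 0.06 over 20 tumors (permutation adjusted p = 0.701 and 0.908).

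Because bulk tumors mix cell types, each of the 10 genes was also set against the levels of 10 lists of cell type markers, 100 relations in all, a comparison chosen after the values had been seen. By permutation, 14 relations had an adjusted p under 0.05 for r, and 13 of them also for rho. Only some of the 14 are named below. Cdh2 went down as squamous markers went up (r = -0.80, rho = -0.82, 20 tumors, permutation adjusted p = 0.0035 and 0.0055), with r = -0.84 without the 2 farthest tumors, -0.85 within session 1 and -0.85 within session 2. Cdh2 also went with luminal (r = 0.73) and basal and myoepithelial markers (r = 0.71), with rho = 0.69 and 0.70 (permutation adjusted p from 0.0044 to 0.0092). The squamous level ran from -0.77 to 2.03 in early and from -2.06 to 4.63 in late tumors, with medians of 1.44 and -1.29, so it moved with onset beside Cdh2, and its part in the onset difference of Cdh2 was not tested.

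Zeb1 went with fibroblast markers (r = 0.79, rho = 0.70, 21 tumors, permutation adjusted p = 0.003 and 0.0086), with r = 0.71 without the 2 farthest tumors, 0.95 within session 1 and 0.47 within session 2. Twist1 (r = 0.70, rho = 0.67, 23 tumors) and Snai1 (r = 0.65, rho = 0.65, 24 tumors) also went with fibroblast markers (permutation adjusted p from 0.0044 to 0.0086), and Snai1 gave -0.07 within session 2. Vim went with adipocyte (r = 0.72, rho = 0.71) and endothelial markers (r = 0.68, rho = 0.71) over 20 tumors (permutation adjusted p from 0.0044 to 0.0092). The marker lists hold none of the 10 genes, but their tumors, arrays and slides are the same. The fibroblast level had medians of -0.31 in early and -0.13 in late tumors, and of 0.80 in late HFD tumors.

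**Figure D4:**
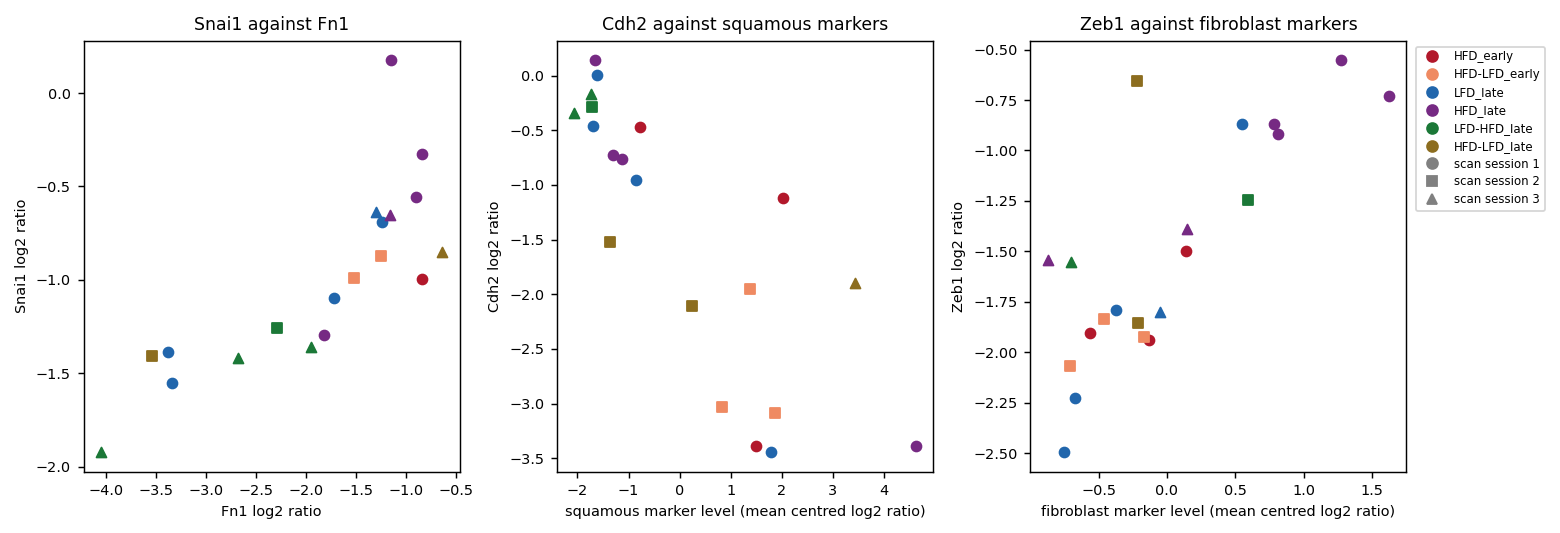
Snai1 against Fn1, Cdh2 against the squamous marker level and Zeb1 against the fibroblast marker level, 1 point per tumor with both values. Axes are log2 ratios, or means of centered log2 ratios for the marker levels, color gives diet and onset and shape the scan session. The Pearson r values are 0.80, -0.80 and 0.79, and the highest squamous level (4.63) belongs to late HFD tumor 4.

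Genes whose pattern was most like that of each of the 10 were taken by Pearson's r over at least 20 tumors, as a description. Cdh2 was most like Acta2, the smooth muscle actin of myoepithelial cells (r = 0.90, 20 tumors), followed by Paqr6 and Fam114a1. Cdh1 was most like Tmem106c (r = 0.90), Vat1 and Stk24 over 20 tumors, and Vim most like Rnf24 (r = 0.84), Cmtm5 and Tacc1. Snai1 was most like Pcsk5 (r = 0.85, 24 tumors), Thbs3 and Col12a1, of which the last is a matrix collagen. Twist1 was most like Sema3d (r = 0.87, 22 tumors), Adgra2 and Slit3, and Zeb1 most like Iffo1 (r = 0.87, 20 tumors), Timp2 and Ctsb. Zeb2 was most like Zeb2os (r = 0.84, 20 tumors), the transcript on the opposite strand of the same locus, Myo5a and B3galnt1. Epcam, Fn1 and Snai2 had values in fewer than 20 tumors and were not compared.

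Other genes of the same pathway were then counted in early against late tumors, in 5 lists, beside the 16.0% of all genes called and the median of -0.05 over all genes. The list that held most calls was that of 20 other transcription factors linked to the transition, of which 8 were higher, 1 was lower and 11 were not called (median 0.37). Ets1, an ETS family factor, rose by 1.49 ± 0.26 (SE) in early tumors (limma adjusted p = 0.00111) and Tcf4, a helix-loop-helix factor, by 1.27 ± 0.25 (adjusted p = 0.00223). The others that rose, named after their values were seen, were Foxc1, Foxq1, Runx2, Hmga2, Tbx2 and Sox4, by 0.38 to 2.73, and the homeobox gene Gsc fell by 1.38. Foxq1 had the largest rise of these, 2.73 ± 0.72. Within HFD 3 of the 20 were called, against 11.7% of all genes, and within HFD-LFD 0, against 0.723%. The list medians there were 0.38 and 0.43. With slide as a random block 3 of the 20 rose and 1 fell, and with it as a fixed block 0 were called, where calls over all genes fell from 3349 to 1513 and 75. Ets1 was then at 1.54 and 1.53 and Tcf4 at 1.28 and 1.27. Only slide 4 held both onsets, with 3 early HFD-LFD tumors and 1 late LFD-HFD tumor. The fixed-block values rest on that slide, and on the other slides onset and slide cannot be told apart. Ets1 and Foxc1 kept their calls under 21 of 23 alternative settings, Sox4 under 11 and Tbx2 under 14, and the last 2 kept them 5 of 24 times with single tumors left out.

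Of 16 epithelial regulators that oppose the transition, 3 rose and 3 fell. Gata3, a luminal differentiation factor, fell by 2.15 ± 0.32 (SE) in early tumors (limma adjusted p = 0.000387), and Klf4, an epithelial barrier factor, rose by 2.07 ± 0.64 (adjusted p = 0.0343). The other 4 were named after their values were seen. Foxa1, also of luminal cells, fell by 3.26 and Cdx2 by 0.63, while Grhl3, a factor of skin barrier formation, rose by 2.56 and Klf5 by 1.25. The list's median was 0.16. Gata3 kept its call under 21 and Klf4 under 20 of 23 alternatives, whereas Foxa1 kept it under 15 and, with single tumors left out, 6 of 24 times. Cdx2 kept its call under 11 of 22 alternatives and had the opposite sign in 2.

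Of 31 epithelial junction and surface genes, 2 rose and 1 fell in early tumors (median -0.05). Within HFD 24 of the 31 were higher in early tumors (median 0.27), and within HFD-LFD 8 of the 31 (median -0.22). Their level was 0.17 to 0.31 in early HFD and -0.20 to -0.11 in early HFD-LFD tumors, without overlap, as a mean of centered log2 ratios. Early HFD and early HFD-LFD tumors lay on different slides in different sessions, so diet and slide cannot be told apart here. Within each of these diets, early and late tumors also shared no slide, so slide and onset cannot be told apart in the onset changes. For the difference between these onset changes limma called 0 of the 31 genes (median 0.69, beside -0.04 over all genes). Muc1, an apical mucin, fell by 1.11 ± 0.27 (SE, limma adjusted p = 0.0101), Cdh3, the P-cadherin of basal cells, rose by 1.40 ± 0.40 (adjusted p = 0.0199), and Ctnnb1, the cadherin partner β-catenin, rose by 0.72 ± 0.22. Of 27 mesenchymal and invasion genes, 0 rose and 1 fell, the integrin subunit Itgb3 by 1.11 ± 0.28 (adjusted p = 0.0103), and the matrix metalloproteinase Mmp14 was at 0.76 ± 0.40 (adjusted p = 0.184). Of 20 genes of the TGF-beta signal that induces the transition, 2 rose and 1 fell. The ligand Tgfb2 rose by 1.12 ± 0.30 (adjusted p = 0.0149), the co-receptor Tgfbr3 fell by 0.94 ± 0.31 (adjusted p = 0.042), and the inhibitor Smad6 rose by 0.66 ± 0.22.

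Between diets, the counts of the same lists lay near those of all genes. LFD tumors shared a slide with HFD and LFD-HFD tumors only on slide 6, and shared none with HFD-LFD tumors. In HFD against LFD, 0 genes of the 5 lists were called in limma, against 0% of all genes, and 17 of the 20 other transcription factors were higher in HFD tumors (median 0.29, beside -0.01 over all genes). In late LFD-HFD against LFD tumors, where Cdh1 was lower, 0 of the 31 epithelial junction and surface genes were called, against 1.22% of all genes, and 10 of the 31 were higher (median -0.25, beside 0.04 over all genes). In late HFD-LFD against LFD tumors, 1 of the 27 mesenchymal and invasion genes fell, against 2.09% of all genes called, while 21 of the 27 were higher (median 0.31, beside 0.04 over all genes).

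**Figure D5:**
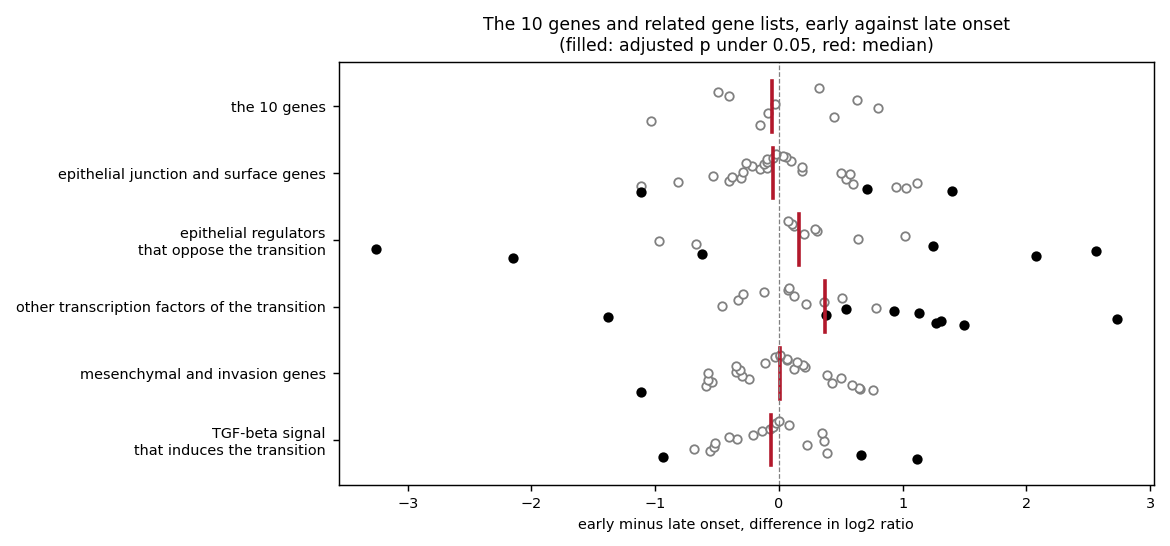
Early minus late difference in log2 ratio (horizontal axis) for the 10 genes and the genes of 5 related lists (vertical axis), with filled points at an adjusted p under 0.05 and red bars at each median. The 10 genes hold 0 filled points, and the other transcription factors hold 9, of which 8 are to the right of 0.

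The marker lists of cell types are given for the same comparison, beside 16.0% of all genes called, and several of their counts lie near or below that share. In early against late tumors, 2 of 8 luminal markers and 1 of 10 basal and myoepithelial markers fell (list medians -1.32 and -1.01), as did 4 of 10 endothelial, 2 of 13 fibroblast and 1 of 7 adipocyte markers. Squamous markers were higher in 11 of 12 genes with a median of 1.28, and 0 of the 12 were called. Of 12 macrophage markers 1 rose, and 0 of 8 skeletal muscle, 7 T cell and 5 B cell markers were called.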

How the data were processed

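Two-color Agilent whole mouse genome arrays held 1 tumor each, labeled with cyanine 5, and the reference with cyanine 3. The authors deposited the scanner output, with mean and background intensity per spot and dye and a dye-normalized log10 ratio from the scanner software. The labels name Agilent Feature Extraction 8.5.1.1 and the file headers 11.0.1.1. The study's methods name a filter on dim spots, lowess and imputation from neighbors.

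From the deposited intensity values, background was corrected with limma 3.58.1 (R 4.3.3) by normexp at an offset of 50, and ratios were normalized by loess within arrays. Spots marked as outliers were left out of the normexp fit and set missing. Bands of 10 rows over 0.5 log2 units below the array's median were set missing, and nothing was imputed. A probe passed where signal minus background exceeded 10 in each channel on 80% of arrays, and the brightest passing probe stood for a gene. Of 39429 probes, 27279 passed. Names came from RefSeq accessions for 27234 probes, otherwise from symbols. The log2 ratios were fitted with lmFit and eBayes, with Benjamini-Hochberg adjustment at 0.05. Early against late was fitted on all 24 tumors, HFD against LFD on those 2 diets, and the other contrasts on means of the 6 groups. Correlations used 100000 permutations, or exact enumeration below 10 tumors. A list's level in a tumor is the mean of its genes' log2 ratios, each centered on its mean over tumors.

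The fit was tested on simulated data. The number of arrays limits the precision. The 10 genes and all lists were chosen with earlier results of these data known. Named were all 10 genes, the 3 most like each, and from every pathway list the 2 of lowest p. Alternatives changed the background correction, normalization, filter, probe choice, missing spots, model, blocks and arrays.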

Additional observations from a re-analysis of the deposited data

Results flagged for a closer look

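In 35 sets of 4 to 10 tumors, each gene's highest or lowest tumor was compared with the next by the ratio of gap to range (Dixon's test at the 95% level), and 3 of 35 sets (8.57%) held a tumor far from the others. Chance gives such a tumor in about 1 in 20 sets.

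Cdh1 in LFD tumor 4 was 0.65, the lowest of 5, with the nearest LFD tumor at 1.54. It was the 1 LFD tumor outside slide 1. Epcam in late HFD tumor 4 was -1.31, the lowest of 5, with the nearest at 1.66. Twist1 in early HFD tumor 3 was -0.20, the highest of 5 early tumors, with the nearest at -1.61.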

How the results depend on the processing

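In 3 comparisons, HFD against LFD, LFD-HFD against late HFD-LFD and the difference between onset changes, 0 of the 10 genes were called under any of the alternatives run. Early against late, 0 were called under 19 of 23 alternatives. The exceptions were 1 gene with normexp on all spots (Zeb1, -0.70) and 1 with marked spots used, a setting chosen after seeing the data (Zeb1, -0.69), 2 with median centring (Snai2 at 1.12 and Zeb2 at 0.72, where the median of all genes moved from -0.05 to 0.22) and 3 with array weights (Cdh2, Zeb1 and Zeb2). Over all genes, 1303 of 3349 calls were higher in early tumors, against 4076 of 4898 with median centring and 1467 of 2340 in the tumor channel alone, and calls ran from 75 with slide as a fixed block to 7180 with array weights. Within HFD the count was 1 with normexp on all spots, 1 with marked spots used and 3 with array weights (8546 of 20919 genes called), and within HFD-LFD it was 1 under each of these and 1 within session 2. Array weights gave 4 in late HFD against LFD (Cdh1, Fn1, Snai1 and Zeb1; 2540 of 20932 genes called) and 1 in late HFD-LFD against LFD (1445 of 20842), where 1 (Cdh1) was also called without the slides that lost dye and 0 to 1 with single tumors left out (1 without LFD tumor 4).

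The Cdh1 call in LFD-HFD against LFD was kept under 11 of 21 alternatives. The count was 0 with dimmed spots kept, the scanner's log ratio, normexp on all spots, median centring, the tumor channel alone, slide as a random or fixed block, session as a block, within session 3 (added after seeing the data) and without the slides that lost dye, and 0 to 1 with single tumors left out. The difference was 0.0632 with slide as a fixed block, 0.0271 within session 3 and otherwise -1.16 to -0.71.

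Early minus late differences that changed sign were not called on either side. Snai1 was 0.0164 with the scanner's log ratio, 0.41 with median centring, 0.21 in the tumor channel alone, 0.0402 with array weights, and 0.0124 and 0.21 with slide as a random and a fixed block. Cdh1 was 0.20 with median centring and 0.0026 within session 1, Vim 0.32 with median centring and 0.0628 as a mean of group means, Epcam -0.29 with array weights and Zeb2 -0.0625 with slide as a fixed block. With single tumors left out Snai1 ran from -0.0865 to 0.0422 and Vim from -0.22 to 0.0046.

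The number of pairs of the 10 genes past the adjustment was 4, against 5 with dimmed spots kept, 3 with the scanner's log ratio or group means subtracted, 2 with marked spots used, 1 in late tumors, 0, 1 and 0 within sessions 1, 2 and 3, and 0 without the slides that lost dye. With dimmed spots kept, Cdh2 and Snai2 gave r = 0.77, against 0.25. The cause of these changes was not tested.

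The pathway genes named by the rule were put through the same alternatives after seeing the data. The setting with slide as a fixed block rests on slide 4, the only slide with both early and late tumors. With slide as a fixed block 9 of 9 calls were lost, with estimates such as Ets1 at 1.53 and Gata3 at -2.77, and in no alternative did any of these pathway genes change sign.

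No paired analysis was possible because replicate numbers only follow the order of the samples.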
